A study of Canis lupus familiaris with 8 samples.

Results

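The genes described here are the olfactory receptors of the dog, taken as every gene whose symbol has the form OR, a number, letters and a number, or the older dog form COR. Of the 15947 genes with a probe set naming 1 symbol, 442 were olfactory receptor genes, or 2.77%, and 1 of them, COR52H8, carries the older form. A gene with several probe sets was given its brightest one, which concerned 5 of the 442. The rule reads symbols and probe set brightness, and no difference between groups.

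Olfactory receptors are G protein-coupled receptors in the cilia of olfactory sensory neurons, the cells of the nasal mucosa that detect odours. Each neuron uses mostly a single receptor gene from a very large family, so any receptor transcript is spread over a small share of the neurons, while the signalling proteins behind the receptors are shared by nearly all of them. The olfactory mucosa also holds sustentacular cells, Bowman's glands and microvillar cells, and it adjoins respiratory mucosa with its ciliated and secretory cells.

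Gene expression was measured on 8 Affymetrix whole-transcript arrays of total RNA from dog alveolar bone, the bone that holds the tooth roots. D2 samples were tissue that had regenerated in a surgical bone defect by 2 weeks after surgery, with the neighbouring bone at the root of the maxillary second premolar. DT6 samples came from such defects at 6 weeks where a tooth had been protracted, D6 samples from such defects at 6 weeks without protraction, and C samples from sound bone at maxillary premolar roots. Each group had 2 arrays, and the weeks were read from the group names. All groups are bulk tissue, in which fewer cells of a type and less RNA per cell cannot be told apart. Values are the deposited log2 probe set values, in which a step of 1 stands for a 2-fold change in brightness.

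The array medians over all probe sets lay between 6.25 and 6.31, and replicate arrays correlated across genes with r between 0.978 and 0.989. The 13 genes of a bone list had medians of 10.1 to 10.9 on the arrays, far above the median gene. Not every member was high on every array. DMP1 was at 6.40 and 6.89 in D2, 12.25 and 6.23 in DT6 and 6.82 and 11.84 in D6, against 9.63 and 11.62 in C. D2 array 2 and D6 array 1 stood apart by transcripts of stratified oral epithelium: KRT13, a keratin of oral mucosa, was at 9.48 and 10.10 on them and at 5.57 or less on the other arrays. Arrays are not tied to animals in the labels, so p-values reflect the spread between arrays alone, and that spread may be technical.

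The olfactory receptors lay at the bottom of the signal range on every array. The median of their 8-array means was 3.60, with quartiles of 2.76 and 4.28, against 6.67 for the median gene. The mean of 440 of the 442 (99.5%) was below that of the median gene, and that of 427 (96.6%) was below the lower quartile of genes at 5.52. The dimmest 10% of genes, with means below 4.44, held 344 of the 442 (77.8%). Olfactory receptors made up 21.6% of the 1595 genes in that dimmest 10%.

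Per array, the receptor median was 3.46 and 3.55 in D2, 3.66 and 3.44 in DT6, 3.57 and 3.54 in D6, and 3.71 and 3.61 in C. The defect groups overlapped one another, and the highest of these medians belonged to a C array while the lowest belonged to DT6 array 2. The other 1251 genes of the dimmest 10% had medians of 3.68 and 3.72 in D2, 3.78 and 3.64 in DT6, 3.77 and 3.73 in D6, and 3.82 and 3.75 in C. DT6 array 2 was lowest and C array 1 highest among these dim genes as well. The plot of levels by array shows both sets with their spread.

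**Figure D1:**
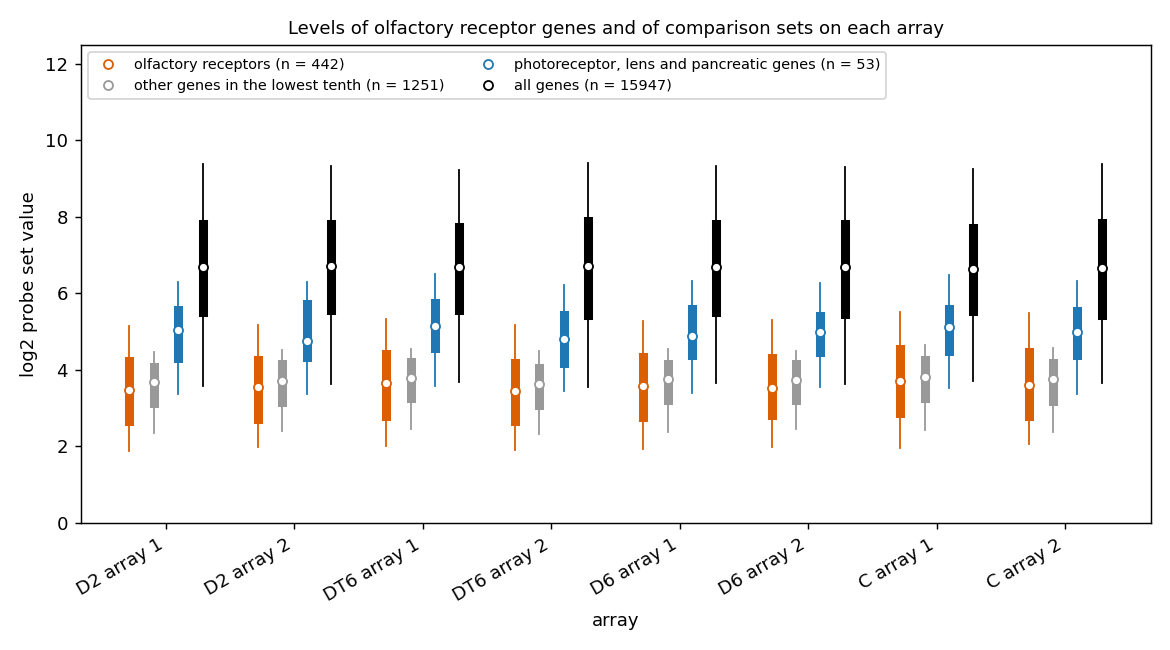
Log2 probe set values on each array (horizontal axis, 2 arrays per group) for the 442 olfactory receptors, the other 1251 genes of the dimmest 10%, a panel of 53 photoreceptor, lens and pancreatic genes, and all 15947 genes; circles are medians, thick bars span the quartiles and thin lines run from the 5th to the 95th percentile. The receptors sit at medians of 3.44 to 3.71 on all 8 arrays, below the panel and far below all genes.

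How far such low values stand from background is not given by the files, so genes of tissues absent from the jaw were used as a yardstick. A panel of 53 genes, 37 of photoreceptors and lens and 16 of the pancreas, had medians of 5.04 and 4.76 in D2, 5.15 and 4.80 in DT6, 4.89 and 4.98 in D6, and 5.13 and 4.998 in C. The receptor median was below the panel median on every array. The 95th percentile of the panel lay between 6.23 and 6.52 on the arrays. Above it stood 3 to 6 receptors per array, 8 on any array, and 2 on all 8 arrays, COR52H8 and OR6B2. The panel was not uniformly silent: GP2, a membrane protein of secretory granules, rose by 2.60 ± 0.23 in D2 and 3.09 ± 0.23 in DT6 against C (SE; limma, adjusted p = 0.000601 and 0.000364). RP1, a protein of the photoreceptor axoneme, rose by 1.39 ± 0.22 and 1.34 ± 0.22 in the same comparisons (adjusted p = 0.00735 and 0.0154), and PDE6H, a subunit of the cone phosphodiesterase, fell by 1.56 ± 0.21 in D2 (adjusted p = 0.00355).

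Differences between receptors were steady across the arrays even at this level. The 8-array means of the receptors had an SD of 1.06, while a receptor varied over the arrays with a median SD of 0.25, against 0.20 for all genes. Across the 442 receptors, any 2 arrays correlated with r of 0.913 to 0.951 over the 28 pairs, and replicate arrays with 0.925 to 0.949. The replicate values lay within the range of all pairs. These correlations are across genes on arrays of 1 design, where each probe set keeps its own probe sequences, and are given as a description. The median absolute difference between replicates was 0.24 for receptors and 0.17 for all genes.

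The 2 receptors above the array median on all 8 arrays are class I and class II genes. Class I receptors, families OR51 to OR56, are the group shared with fish, and class II receptors are the larger group of land vertebrates. COR52H8, of class I, was at 8.76 and 8.69 in D2, 8.83 and 9.003 in DT6, 8.90 and 8.93 in D6, and 8.74 and 9.17 in C. Each defect group overlapped C, while D2 lay below both DT6 and D6. Its other probe set averaged 5.40, so the 2 probe sets assigned to this gene disagree. OR6B2, of class II, was at 7.36 and 7.50 in D2, 7.47 and 7.13 in DT6, 7.63 and 7.58 in D6, and 7.60 and 7.21 in C. Each defect group again overlapped C, while D6 lay above both D2 and DT6. The next highest 8-array means were 6.65 for OR10H2, 6.31 for OR9S25, 6.21 for OR7A66, 6.10 for OR4E1, 6.03 for OR52H9, 5.97 for OR2F2, 5.96 for OR1F15 and 5.86 for OR52H1. None of these 10 brightest receptors passed the threshold in any comparison. Probe sets also differed for OR52A5, at 5.04 and 2.46, and for OR9A4, at 5.17 and 4.07.

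OR51E1 and OR51E2, class I receptors often reported in human tissues outside the nose, were not among the bright ones. OR51E1 was at 4.30 and 3.62 in D2, 4.55 and 4.13 in DT6, 3.83 and 4.31 in D6, and 4.04 and 4.61 in C. OR51E2 was at 3.91 and 3.59 in D2, 4.50 and 4.40 in DT6, 3.35 and 3.55 in D6, and 4.12 and 3.42 in C. Both means, 4.17 and 3.85, lie in the dimmest 10% of genes.

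Early defect tissue was compared with sound bone in D2 against C. In D2, 1 receptor rose and 13 fell (limma on all genes, two-sided, Benjamini-Hochberg adjusted p under 0.05), so 3.17% of the receptors were called. Over all genes 8.4% were called, 5.66% as higher and 2.74% as lower, so the share among receptors was below that background. The gap lay in the rises, 1 of 442, while the 13 falls of 442 were near the all-gene share of falls. Of the other 1251 genes of the dimmest 10%, 3.68% were called, 30 as higher and 16 as lower. The receptor median difference was -0.18, against -0.01 for all genes. Of the 442, 318 (71.9%) were lower in D2, against 51.9% of all genes. The other genes of the dimmest 10% had a median difference of -0.11, with 839 of 1251 (67.1%) lower. The panel of photoreceptor, lens and pancreatic genes had -0.15, with 79.2% lower. The 2 arrays of D2 lay wholly below those of C for 173 receptors (39.1%, against 28.4% of all genes) and wholly above them for 28 (6.33%, against 27.9%). Among the other genes of the dimmest 10% these shares were 34.9% below and 13.6% above. After quantile normalization, which moved the median of all genes to -0.05, the receptor median was -0.12. The count of calls was 19 without DT6 array 1 or DT6 array 2, and 2, 5, 4, 3, 6 and 7 without C array 1, C array 2, D2 array 1, D2 array 2, D6 array 1 and D6 array 2. Without D2 array 2 and D6 array 1 together it was 3, and with the replicate number as a block it was 7.

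OR2AV12 showed the largest fall. It was at 3.39 and 3.32 in D2, 3.42 and 3.14 in DT6 and 3.67 and 3.47 in D6, against 4.87 and 4.87 in C. Both C arrays stood above all 6 defect arrays by over a unit on the log2 scale. The differences from C were -1.52 ± 0.18 in D2, -1.60 ± 0.18 in DT6 and -1.30 ± 0.18 in D6 (SE, 2 arrays against 2; limma adjusted p = 0.00218, 0.00232 and 0.0162).

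OR51L5, a class I receptor, was at 3.85 and 3.74 in D2, 3.87 and 4.01 in DT6 and 4.15 and 4.30 in D6, against 4.97 and 5.14 in C. It was thus lower on each of the defect arrays than on both C arrays. It fell by 1.26 ± 0.17 in D2 and by 1.12 ± 0.17 in DT6 (limma adjusted p = 0.00383 and 0.011).

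OR7A58 was at 3.88 and 2.99 in D2, 3.70 and 3.58 in DT6 and 3.93 and 4.14 in D6, against 4.62 and 4.76 in C, and its D2 replicates differed by nearly a unit. It fell by 1.26 ± 0.27 in D2 (limma adjusted p = 0.0262). OR7A62 was at 2.85 and 3.01 in D2, 2.88 and 2.52 in DT6 and 3.04 and 3.01 in D6, against 3.77 and 3.64 in C, with the C arrays highest. It fell by 0.78 ± 0.19 in D2 and by 1.01 ± 0.19 in DT6 (adjusted p = 0.0382 and 0.0276). OR8J2 was at 4.66 and 4.86 in D2, 4.50 and 4.76 in DT6 and 4.71 and 4.46 in D6, against 5.51 and 5.52 in C, and its 3 defect groups overlapped one another. It fell by 0.76 in D2, by 0.88 in DT6 and by 0.93 in D6, with an SE of 0.18 (adjusted p = 0.0379, 0.0391 and 0.0435).

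The other falls in D2 were smaller than that of OR7A58, between 0.65 for OR9A4 and 0.85 for OR6D7 and OR10AG65, with OR6C4, OR2AV1, OR5W6, OR8S13 and OR7A74 between them. OR8S13, OR7A74 and OR9A4 lie outside the rule for naming genes and are named after their values were seen. Only OR6C74 rose in D2. It was at 4.30 and 3.87 in D2, 3.96 and 3.55 in DT6 and 4.34 and 4.37 in D6, against 3.32 and 3.05 in C. Both C arrays were the lowest of the 8. It rose by 0.90 ± 0.22 in D2 and by 1.17 ± 0.22 in D6 (limma adjusted p = 0.0413 and 0.0375).

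OR4D2 had the largest difference of all receptors in D2 and did not pass. It was at 4.55 and 4.57 in D2, 5.69 and 4.56 in DT6 and 4.28 and 5.94 in D6, against 6.06 and 6.14 in C. Its replicates differed by more than a unit in both DT6 and D6. The D2 difference was -1.54 ± 0.50 (limma adjusted p = 0.0995).

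**Figure D2:**
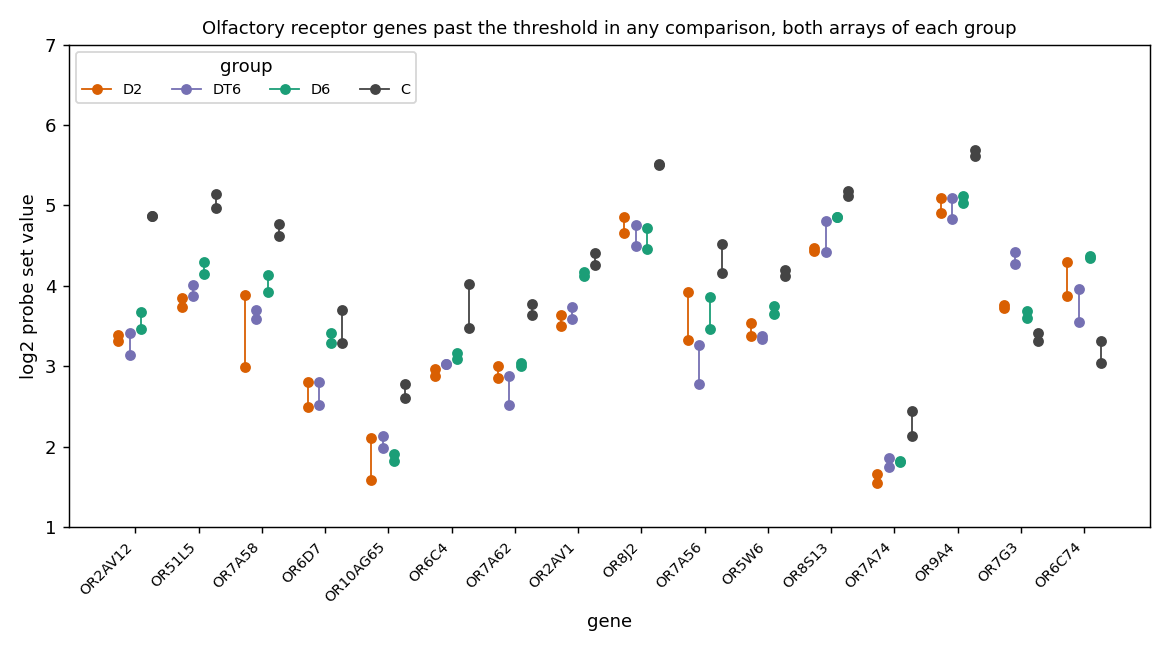
Log2 probe set values of the 16 olfactory receptors past the threshold in any comparison (horizontal axis), with both arrays of each group as points joined by a line. For 13 of the 16 both C arrays lie above all 6 defect arrays, while OR7G3 and OR6C74 lie lowest in C.

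The 16 receptors past the threshold in any comparison gave 24 calls, since all 3 defect groups were compared with the same C arrays. In 13 of the 16, as the plot of these genes shows, both C values lay above all 6 defect values, which the calls themselves favour. Over all 442 receptors this held for 59 (13.3%), against 10.5% of all genes, and the reverse, both C values below all 6, held for 10 (2.26%), against 12.8% of all genes. The 8-array means of the called receptors ran from 1.88 to 5.17. Of the 16, 13 were in the dimmest 10% of genes, near the share of all receptors, 344 of 442 (77.8%). Only 3 calls held whichever array was left out: OR2AV12 in D2 and DT6, and OR51L5 in D2. Leaving out C array 1 ended 21 of the 24 calls and leaving out C array 2 ended 20. The calls ended numbered 15 without D2 array 1, 15 without D2 array 2, 14 without D6 array 1, 12 without D6 array 2, 3 without DT6 array 1 and 5 without DT6 array 2. No difference behind the 24 calls changed sign in any of these 8 fits.

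The comparison of DT6 with C concerns defect tissue at the later time with a moved tooth. There 1 receptor rose and 6 fell, 1.58% of the receptors against 3.04% of all genes, or 2.29% higher and 0.746% lower. By direction, the receptor share of rises was below that of all genes and the share of falls was above it. Of the other 1251 genes of the dimmest 10%, 1.44% were called, 14 as higher and 4 as lower. The receptor median difference was -0.11, against -0.01 for all genes and -0.08 for the other genes of the dimmest 10%. In DT6 294 receptors (66.5%) were lower, against 51.4% of all genes and 63% of those dim genes. The arrays of DT6 lay wholly below those of C for 125 receptors (28.3%, against 19.5% of all genes) and wholly above them for 41 (9.28%, against 22.1%). Among the other genes of the dimmest 10% these shares were 29.8% below and 13.1% above. The receptor median difference was -0.21 without DT6 array 1 and -0.015 without DT6 array 2. Without C array 1 or C array 2 there was 1 call, and without DT6 array 2 there were 2.

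Besides OR2AV12, OR51L5, OR7A62 and OR8J2, the falls in DT6 were those of OR7A56 and OR5W6. OR7A56 was at 3.33 and 3.93 in D2, 2.77 and 3.26 in DT6 and 3.47 and 3.86 in D6, against 4.52 and 4.16 in C, so that the DT6 arrays were the lowest. It fell by 1.32 ± 0.27 in DT6 (limma adjusted p = 0.0408), and OR5W6 fell by 0.81 ± 0.17 (adjusted p = 0.0388). OR7G3 was at 3.76 and 3.73 in D2, 4.28 and 4.42 in DT6 and 3.60 and 3.69 in D6, against 3.41 and 3.31 in C. The DT6 arrays were the highest of the 8. It rose by 0.99 ± 0.17 in DT6 (adjusted p = 0.0173). OR5AK8 had a difference of -1.35 ± 0.37 in DT6 and did not pass (adjusted p = 0.102).

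In D6 against C, 1 receptor rose and 2 fell, 0.679% of the receptors against 1.76% of all genes, or 0.985% higher and 0.771% lower. These were OR6C74, OR2AV12 and OR8J2, whose values stand above. Of the other 1251 genes of the dimmest 10%, 0.24% were called, 0 as higher and 3 as lower. The receptor median difference was -0.08, against 0.01 for all genes and -0.05 for the other genes of the dimmest 10%. In D6 268 receptors (60.6%) were lower, against 48.4% of all genes and 56% of those dim genes. The count of calls was 0 without C array 1, C array 2 or D6 array 1, 1 without D2 array 1 or D2 array 2, and 2 without D6 array 2. It was also 0 without D2 array 2 and D6 array 1 together.

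DT6 against D6 compares a protracted tooth with none at the same time after surgery. It gave 0 calls among the receptors in limma, against 1.52% of all genes, or 1.32% higher and 0.207% lower. At an unadjusted p under 0.05 there were 9 of the 442 receptors higher and 13 lower in DT6. Of all 15947 genes, 682 were higher and 357 lower at that cut. Without a variance trend in eBayes there were 3 calls. The receptor median difference was -0.04, against -0.02 for all genes, and it was 0.04 without DT6 array 2. The arrays of DT6 lay wholly above those of D6 for 60 receptors (13.6%, against 13.6% of all genes) and wholly below them for 87 (19.7%, against 15.4%). The largest differences among receptors whose groups did not overlap were 1.08 ± 0.23 for OR6W1, 1.00 ± 0.25 for OR51E2 and -0.99 ± 0.20 for OR10D5 (limma adjusted p = 0.0676, 0.139 and 0.0534).

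In D6 against D2 there were also 0 calls in limma, against 1.68% of all genes, or 0.213% higher and 1.47% lower. At an unadjusted p under 0.05, 20 of the 442 receptors were higher and 2 lower in D6. Of all 15947 genes, 447 were higher and 810 lower at that cut. The median difference was 0.08, against 0.02 for all genes. The arrays of D6 lay wholly above those of D2 for 115 receptors (26%, against 23.5% of all genes) and wholly below them for 33 (7.47%, against 19.8%).

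The lower values in D2 were spread over the receptor families. Class I receptors had a median D2 difference of -0.22, with 68 of 83 lower and 1 (1.2%) called in any comparison. Class II receptors had -0.15, with 250 of 359 lower and 15 (4.18%) called. Over all genes 9.24% were called in any comparison, so both shares lay below the background. Of the 17 families, OR52, with 40 genes, had a median of -0.26, OR56 with 7 had -0.25 and OR5 with 50 had -0.23. The median was above 0 in OR1 (14 genes, 0.08), OR11 (9 genes, 0.06) and OR14 (2 genes, 0.17).

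The OR7A subfamily, singled out after its values were seen, held 4 of the 16 called receptors among its 20 genes (20%, against 9.24% of all genes). Of the 20, 18 were lower in D2, with a median of -0.26. Its 8-array means ran from 1.68 to 6.21. The OR2AV subfamily had 3 genes, of which OR2AV12 and OR2AV1 were called, while OR2AV2 differed by 0.18 in D2. Members of a subfamily have similar sequences, so their probe sets may share target RNA, which was not tested here.

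Receptor genes lie in clusters, and the called ones were set beside their nearest measured genes in the RefSeq order of the assembly UU_Cfam_GSD_1.0. The 16 called receptors had 25 distinct receptors as neighbours. Neighbouring receptors whose symbols end in a letter fall outside the member rule and were not counted. Of the 25, 2 were called, OR2AV1 and OR2AV12, which adjoin each other. Over all genes 9.24% were called in any comparison, so 2 of 25 is near that share. The other 23 neighbours were not called, and 18 of them were lower in D2, with a median difference of -0.13. Over all 442 receptors, 318 (71.9%) were lower in D2. Among the neighbours not counted, OR8J2B adjoins OR8J2 and passed the threshold in D2 and DT6.

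The difference from C was set against signal level, since dim genes as a whole were lower in the defect groups. For means below 3, the median D2 difference was -0.11 in 146 receptors and -0.10 in 227 other genes. Between 3 and 4 it was -0.24 in 142 receptors and -0.11 in 583 other genes. Between 4 and 5 it was -0.19 in 117 receptors and -0.08 in 1423 other genes. For these ranges, receptors thus lay at or below other genes of like brightness. From 5 to 6 the values were -0.29 in 30 receptors and -0.05 in 2837 other genes, and from 6 upward -0.05 in 7 receptors and 0.02 in 10435 other genes. In DT6 the receptor medians over the same ranges, from dim to bright, were -0.08, -0.12, -0.14, -0.24 and -0.04, and those of other genes -0.03, -0.10, -0.07, -0.07 and 0.02. The 14 measured taste receptors, another family of chemoreceptors, had medians of -0.22 in D2, -0.19 in DT6 and -0.16 in D6. Of them 0 were called, against 8.4%, 3.04% and 1.76% of all genes.

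**Figure D3:**
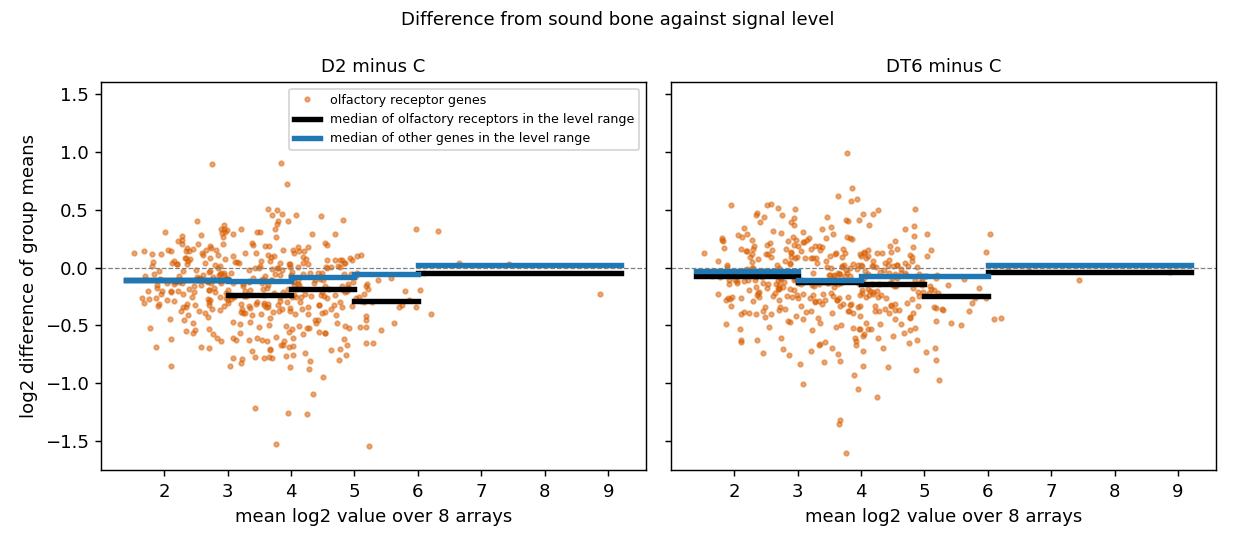
Log2 difference of group means, D2 minus C on the left and DT6 minus C on the right, against the mean log2 value over the 8 arrays. Points are the 442 olfactory receptors, and lines are medians within ranges of level for receptors and for other genes; most points lie below 0 and below a level of 5.

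Transcripts of airway epithelium in D2 and DT6 raised the question whether olfactory mucosa came with them. Of the 23 measured genes of an airway and gland list, 23 rose in D2, 18 in DT6 and 0 in D6 against C, with median differences of 3.76, 2.65 and 0.10. Of 35 measured motile cilium genes, 24 rose in D2, 21 in DT6 and 0 in D6, with medians of 1.18, 1.11 and -0.04. Over all genes 5.66% rose in D2, 2.29% in DT6 and 0.985% in D6. Both lists were chosen with earlier results of these data known, so their counts are a description and no test. BPIFA1, a protein secreted on the upper airway surface, was at 12.60 and 11.25 in D2, 12.69 and 12.08 in DT6 and 6.04 and 4.86 in D6, against 4.37 and 5.52 in C. It stood at least 5 units higher on each D2 and DT6 array than on any other. Its differences were 6.98 ± 0.54 in D2 and 7.44 ± 0.54 in DT6 (limma adjusted p = 0.000365 and 0.00032).

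SCGB1A1, the secretoglobin of club cells, rose by 4.47 ± 0.61 in D2 and 4.90 ± 0.61 in DT6 (limma adjusted p = 0.00399 and 0.00363). SNTN, a protein of motile cilia tips, rose by 3.03 ± 0.20 and 2.65 ± 0.20 (adjusted p = 0.000151 and 0.00036). DNAH5, an outer dynein arm heavy chain, rose by 2.65 ± 0.29 and 2.44 ± 0.29 (adjusted p = 0.00144 and 0.0029). FOXJ1, the transcription factor of motile ciliated cells, did not pass. It was at 7.04 and 7.18 in D2, 7.34 and 6.95 in DT6 and 6.94 and 7.08 in D6, against 7.15 and 7.001 in C. Its differences were 0.035 and 0.071 with an SE of 0.165 (adjusted p = 0.931 and 0.871).

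No signalling gene of olfactory sensory neurons passed the threshold in the groups with airway transcripts. The 11 defining genes of these cells were set down as a core list, of which 10 were measured and OMP, the olfactory marker protein, was not analysed here. The count past the threshold in limma was 0 of 10 in both D2 and DT6, near the all-gene shares of 8.4% and 3.04%. Of the 10, 2 in D2 (ADCY3 and CNGB1) and 1 in DT6 (ADCY3) had an unadjusted p under 0.05, all of them lower than in C. Of all 15947 genes, 2225 were higher and 1567 lower in D2 at that cut, and 1662 higher and 1138 lower in DT6. Among the 10 core genes the D2 differences ran from -0.61 to 0.07, with 1 higher, and the highest upper 95% bound was 0.61. In DT6 they ran from -0.49 to 0.18, with 3 higher, and the highest upper bound was 0.71. Both bounds belonged to GNG13, a G protein gamma subunit. The size of rise that olfactory mucosa would bring is not known from these data, so whether any came with the airway transcripts was not tested beyond these intervals.

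CNGA2, the cyclic nucleotide-gated channel subunit of olfactory cilia, was at 4.88 and 5.08 in D2, 5.01 and 4.96 in DT6 and 5.09 and 4.97 in D6, against 5.15 and 4.95 in C, with all groups overlapping. CNGA4, its modulatory partner, was at 4.14 and 4.28 in D2, 4.61 and 3.90 in DT6 and 4.32 and 4.17 in D6, against 4.46 and 4.54 in C. Neither was higher in D2 than in C. GNAL, the G protein alpha subunit that couples to odour receptors, was at 4.60 and 4.42 in D2, 4.83 and 4.88 in DT6 and 4.43 and 4.29 in D6, against 4.82 and 4.57 in C. ANO2, the chloride channel that amplifies the response, was at 4.70 and 4.96 in D2, 4.99 and 5.03 in DT6 and 4.96 and 4.75 in D6, against 4.97 and 4.95 in C. Both DT6 arrays stood above both C arrays for GNAL and ANO2, by differences of 0.16 ± 0.17 and 0.05 ± 0.17 that did not pass (limma adjusted p = 0.697 and 0.922). GNAL was also higher in DT6 than in D6, by 0.49 ± 0.17, and did not pass there (unadjusted p = 0.0202, limma adjusted p = 0.508).

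RTP1 and RTP2 bring receptors to the cell surface. RTP1 was at 4.51 and 4.45 in D2, 4.48 and 4.59 in DT6 and 4.76 and 4.66 in D6, against 4.92 and 4.76 in C. RTP2 was at 5.82 and 5.73 in D2, 5.65 and 5.53 in DT6 and 5.73 and 5.84 in D6, against 5.99 and 5.71 in C. STOML3, a stomatin-like protein of olfactory cilia, was at 4.61 and 4.45 in D2, 4.76 and 4.10 in DT6 and 4.47 and 4.40 in D6, against 4.77 and 4.48 in C. For RTP1 the D2 and DT6 arrays lay below both C arrays, while for STOML3 both groups overlapped C. For RTP2 D2 overlapped C and both DT6 arrays lay below it. ADCY3, the adenylyl cyclase of olfactory cilia that many other cells use too, was at 8.10 and 8.21 in D2, 8.53 and 8.02 in DT6 and 8.15 and 8.63 in D6, against 8.83 and 8.70 in C. CNGB1, which rod photoreceptors share, was at 5.52 and 5.54 in D2, 5.59 and 5.52 in DT6 and 5.57 and 5.61 in D6, against 5.98 and 5.79 in C. For both genes all 6 defect arrays were lower than both C arrays.

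The full neuron list had 23 of 25 genes measured, with medians of -0.19 in D2 and -0.25 in DT6. In these groups 0 were called, against 8.4% and 3.04% of all genes. In D6, EBF2, a transcription factor that bone-forming cells of the mouse also use, fell by 0.93 ± 0.18 (limma adjusted p = 0.0425), and the list median was -0.19. The 7 measured genes of olfactory neuron progenitors had medians of -0.18 in D2, -0.04 in DT6 and 0.01 in D6. They had 0 calls, near the all-gene shares of 8.4%, 3.04% and 1.76%. Of 14 measured genes of neurons in general, 11 were lower in D2, with a median of -0.22, and 1 (7.14%, against 8.4% of all genes) was called. This was UCHL1, a ubiquitin hydrolase, which rose in D2. It was at 7.24 and 6.81 in D2, 5.75 and 5.55 in DT6 and 5.79 and 5.91 in D6, against 5.60 and 6.00 in C. The rise was 1.22 ± 0.20 (adjusted p = 0.00917), while the DT6 values overlapped those of C.

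For supporting cells of the olfactory mucosa, 6 of 14 listed genes were measured. The count past the threshold in limma was 0 of 6 in D2, DT6 and D6, against 8.4%, 3.04% and 1.76% of all genes. The list medians were 0.10, 0.39 and 0.06. At an unadjusted p under 0.05, 1 of the 6 was higher in D2 and 3 were higher in DT6. Of all 15947 genes, 2225 were higher in D2 and 1662 in DT6 at that cut. In D2 3 of the 6 were lower than in C, ERMN by a difference of -0.25, BPIFB3 by -0.29 and BPIFB6 by -0.27.

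OBP2B, an odorant-binding protein of nasal and other glands, was at 10.46 and 5.89 in D2, 8.70 and 10.29 in DT6 and 5.46 and 5.46 in D6, against 5.10 and 6.95 in C. It was high on 3 of the 4 D2 and DT6 arrays and low on D2 array 2. The differences were 2.15 ± 1.24 in D2 and 3.48 ± 1.24 in DT6 (adjusted p = 0.343 and 0.192), and without D2 array 1 the D2 difference was -0.14. CYP2A13, a cytochrome of the respiratory tract and nasal mucosa, was at 5.49 and 5.73 in D2, 5.06 and 7.37 in DT6 and 5.03 and 2.58 in D6, against 3.81 and 3.38 in C. Both D2 arrays and both DT6 arrays exceeded both C arrays, with differences of 2.01 ± 0.82 and 2.62 ± 0.82 (adjusted p = 0.176 and 0.14). BPIFB4, of the same protein family as BPIFA1, was at 5.68 and 5.18 in D2, 5.85 and 5.56 in DT6 and 5.33 and 5.35 in D6, against 5.09 and 4.87 in C, so that every defect array exceeded both C arrays. Its differences were 0.46 ± 0.21 in D2 and 0.72 ± 0.21 in DT6 (unadjusted p = 0.0565 and 0.00712, limma adjusted p = 0.225 and 0.112).

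Microvillar cells of the olfactory mucosa share markers with the tuft cells of other epithelia. Of 10 such genes, all measured, 0 passed in limma in D2, DT6 or D6, with medians of -0.14, -0.05 and -0.09. Over all genes 8.4%, 3.04% and 1.76% passed in these groups, so 0 in a short list is near those shares. ASCL3, a transcription factor that salivary duct cells and airway ionocytes also use, was at 5.23 and 5.62 in D2, 3.99 and 5.81 in DT6 and 3.74 and 3.44 in D6, against 4.08 and 3.72 in C. Both D2 arrays were above both C arrays, by a difference of 1.53 ± 0.48 (adjusted p = 0.09). Of the 16 listed trace amine and vomeronasal receptors, 3 were measured, TAAR4, TAAR5 and VN1R4, and 0 passed in D2, DT6 or D6.

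**Figure D4:**
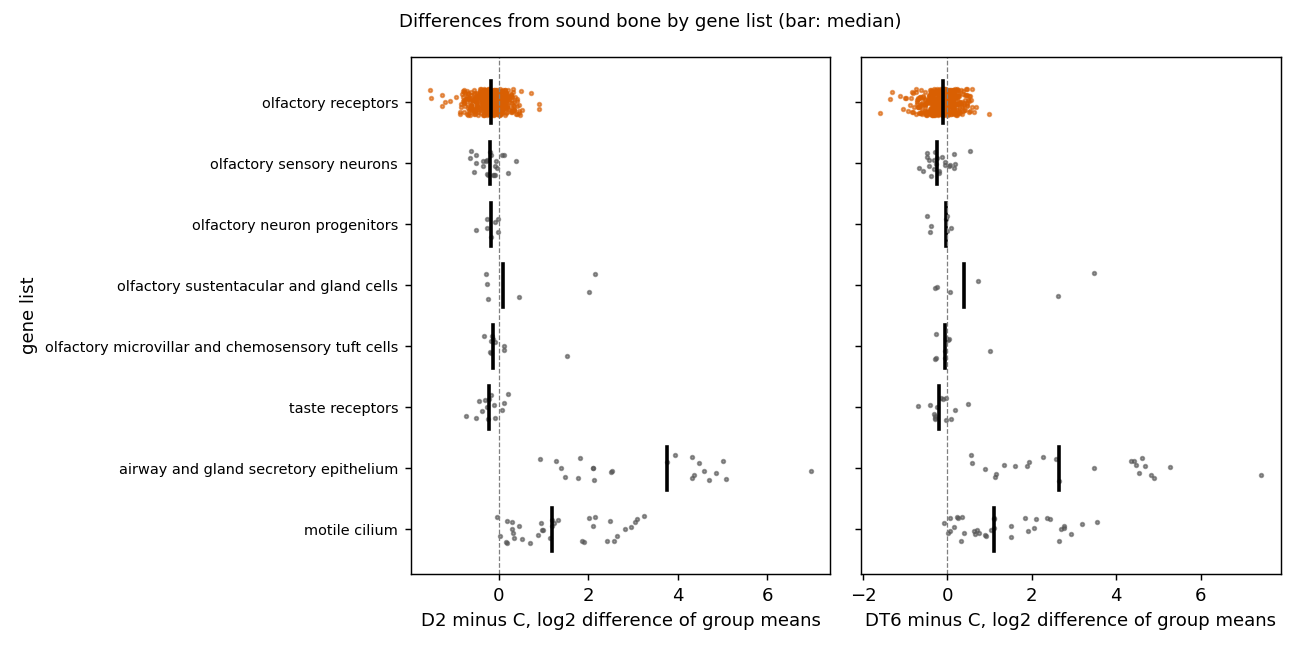
Log2 difference of group means for each measured gene of 8 lists (rows), D2 minus C on the left and DT6 minus C on the right; points are genes and the vertical bar is the list's median. The airway and cilium lists lie to the right of 0 in both panels, with medians of 3.76 and 1.18 in D2, while the olfactory receptors and the olfactory neuron list centre just below 0.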

How the data were processed

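The authors deposited log2 probe set values of 8 arrays, with 22708 probe sets. How they were summarised, background-corrected and normalized, and on which log base, is not stated in the labels or headers. Base 2 was assumed from the values, which lie between 0.914 and 14.5. Arrays have no sequencing depth, and 2 arrays per group limit the precision.

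The platform annotation gave 1 gene symbol to 16545 probe sets, several to 370 and none to 5793. The brightest probe set by mean was kept for each of 15947 genes. RefSeq records were found for 431 of the 442 receptors, all protein coding. A further 109 olfactory receptor symbols end in a letter and were kept as an alternative only.

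The tests used limma 3.58.1 (R 4.3.3), in 1 fit of 4 group means over all 8 arrays, with 4 residual degrees of freedom. eBayes used a variance trend, and p-values were Benjamini-Hochberg adjusted over all genes in each of 5 comparisons, at a threshold of 0.05. Standard errors are limma's moderated ones. The fit was tested on simulated data.

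Named receptors are those past the threshold, up to 10 per comparison, the 10 highest means, the 5 with the widest spread of group means, the 3 largest non-overlapping differences in 3 comparisons, and OR51E1 and OR51E2. Other genes named are the neuron core, up to 4 per list by difference, BPIFA1, SCGB1A1, FOXJ1 and DNAH5. The receptors and lists were chosen with earlier results of these data known. Coordinates are left out because the values name no genome build.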

Additional observations from a re-analysis of the deposited data

How the results depend on the processing

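With 2 arrays per group, the counts of called receptors were less steady than the medians. Leaving out each array in turn gave 2 to 19 calls and medians of -0.20 to -0.14 in D2 against C, 1 to 7 calls and -0.21 to -0.015 in DT6 against C, and 0 to 4 calls and -0.11 to -0.06 in D6 against C. It gave 0 to 1 calls in the other comparisons, with medians of 0.06 to 0.11 in D6 against D2 and -0.12 to 0.04 in DT6 against D6. Restricting the fit to genes above the median mean left 2 receptors and 0 calls in D2, DT6 and D6 against C, with medians of 0.080 in D6 against C, 0.18 in D6 against D2 and -0.15 in DT6 against D6. Leaving out both arrays rich in oral epithelium transcripts, chosen after seeing the data, gave 3 calls in D2 and 0 in D6 against C. DT6 against D6 had 3 calls without a variance trend and 1 with each probe set counted separately. Including the symbols that end in a letter gave 6 calls in D6 against C, also chosen after seeing the data. A cut at the 75th percentile of the panel left 6 receptors above it on all arrays, and a cut at its highest value left 1. The causes were not tested.

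The labels do not say whether replicate numbers pair the samples. Same-numbered arrays deviated together with r between -0.26 and 0.19 over the pairs of groups. With 2 arrays per group these values cannot decide whether same-numbered arrays share an animal. With the replicate number as a block there were 7 calls in D2, 5 in DT6 and 2 in D6 against C, and 0 in the other comparisons.

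Of 740 recomputed differences of named genes, 544 kept their direction and their side of the threshold, 164 lost the call, 25 gained it and 7 changed sign. The D2 difference of FOXJ1 was -0.033 after quantile normalization, -0.039 without C array 2, and -0.038 when D2 array 2 was left out, with or without D6 array 1. Its DT6 difference ran from -0.12 to 0.26 over the arrays left out and was -0.0036 without C array 2. The D2 difference of OBP2B ran from -0.14, without D2 array 1, to 4.44.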

Other observations

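The 109 olfactory receptor symbols that end in a letter had array medians of 3.16 to 3.46. Their median difference in D2 against C was -0.14, with 74 lower, against -0.18 for the 442. In D2 4 of them fell (3.67%, against 2.74% of all genes), OR2L5C, OR6B2C, OR8B1J and OR8J2B, all named after their values were seen. OR2L5C fell by 1.10 ± 0.20 in D2, by 1.00 ± 0.20 in DT6 and by 1.34 ± 0.20 in D6 (limma adjusted p = 0.0136, 0.0371 and 0.0209). OR6B2C fell by 0.98 ± 0.21 in D2, by 1.13 ± 0.21 in DT6 and by 1.30 ± 0.21 in D6 (adjusted p = 0.0238, 0.0274 and 0.0222). OR8J2B adjoins OR8J2 in the RefSeq gene order, and it fell by 1.22 ± 0.19 in D2 and by 1.02 ± 0.19 in DT6 (adjusted p = 0.00691 and 0.0276).

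A further 33 probe sets carry several symbols of which at least 1 is an olfactory receptor, and they entered no comparison. Their 8-array means had a median of 3.44 and ran from 1.54 to 5.42. The median difference from C was -0.07 in D2 with 20 lower, -0.05 in DT6 with 18 lower, and 0.05 in D6 with 15 lower.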
